A study of Mus musculus with 8 samples.

Results

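The transcripts described here are 10 imprinted genes that control growth: Peg3, Peg10, Sgce, Igf2, H19, Dlk1, Meg3, Grb10, Ndn and Plagl1. They were chosen by name, as imprinted genes taken to be active in progenitors, out of a table of 20793 rows. A row was found for 8 of the 10. H19 and Meg3, the 2 long noncoding RNAs of the set, matched no row by symbol, synonym or RefSeq accession and were not analysed here. RNA was sequenced from mouse brain neural progenitor cells of mixed FvB and C57BL/6 background, which had been infected with lentiviral hairpins and selected with puromycin for 3 days. Proliferating cells grew in N2 medium that held EGF and bFGF at 20 ng/ml, and differentiating cells spent 5 days in neurobasal medium with B27. Each state had 2 libraries with non-targeted (NT) hairpins, named TRC and GFP when proliferating and 7 and GFP-D when differentiating. It also had 1 library labelled as targeted against FUBP1, a protein that binds single-stranded nucleic acid and acts in transcription and splicing (FUBP1 and FUBP1-D), and 1 labelled as targeted against CIC, a transcriptional repressor (CIC and CIC-D). The labels do not say whether the 2 NT libraries of a state came from separate cultures, so the p-values measure a spread that may be partly technical. With 1 library per label and state, that spread also holds any difference of a label's effect between the states.

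Imprinted genes are expressed from the allele of 1 parent, in a way that depends on methylation set in the germ line. Several of them act on fetal and postnatal growth. Paternally expressed genes such as Igf2, Peg3, Dlk1 and Plagl1 are linked mainly to growth and to the upkeep of stem and progenitor cells, and maternally expressed ones such as H19 and Grb10 mainly to restraint of growth. In the brain, Ndn (necdin) is best known as a protein of postmitotic neurons, and loss of the paternal copy of its region causes Prader-Willi syndrome in humans. The values below sum both alleles, and the parental origin of the transcripts was not measured.

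Values are FPKM, which scale the fragments of a gene by its transcript length and by library size, so that levels of different genes can be compared. The number of fragments in each library is unknown, and the FPKM of a library summed to between 426984 and 541608. The knockdown labels were checked on the targeted genes. Fubp1 was at 69.3% of TRC but 280% of GFP in the library labelled FUBP1, and at 87.1% of 7 and 84.9% of GFP-D in FUBP1-D. Its lowest level, 12.4 FPKM, was in GFP. Every direction given for the FUBP1 arm is therefore that of the label. Cic lay below both NT libraries in both libraries labelled CIC (33.6% and 39.2% of the NT values when proliferating, 60.9% and 72.5% when differentiating). All 7 neural progenitor markers were detected, with a summed level of 3717 to 5315 FPKM in the proliferating and 2992 to 4679 FPKM in the differentiating libraries. The 6 astrocyte markers summed to 239 to 336 FPKM and 624 to 1009 FPKM, respectively. The 6 neuron markers summed to 27.9 to 58.6 FPKM and 38.0 to 61.5 FPKM, most of it Map2, with Tubb3 up to 3.68 FPKM (GFP-D) and Rbfox3 and Dcx at or near 0.

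The set was only partly active in these cells. The fits were made on the 11968 rows that reached 1 FPKM in at least 2 libraries, and 5 of the 8 members did so: Sgce, Peg10, Ndn, Plagl1 and Peg3. Their mean over the 8 libraries was 35.8 FPKM for Sgce, 23.3 for Peg10, 14.4 for Ndn, 4.66 for Plagl1 and 4.11 for Peg3. Sgce exceeded the mean level of 77.7% of the kept rows, and Peg3 that of 17.7%. Igf2, Dlk1 and Grb10 stayed outside, Dlk1 with a single library above 1 FPKM. Plagl1 was below 1 FPKM in 3 of the 4 proliferating libraries, so that 4 of the 8 genes were not active by that measure in most proliferating libraries.

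**Figure D1:**
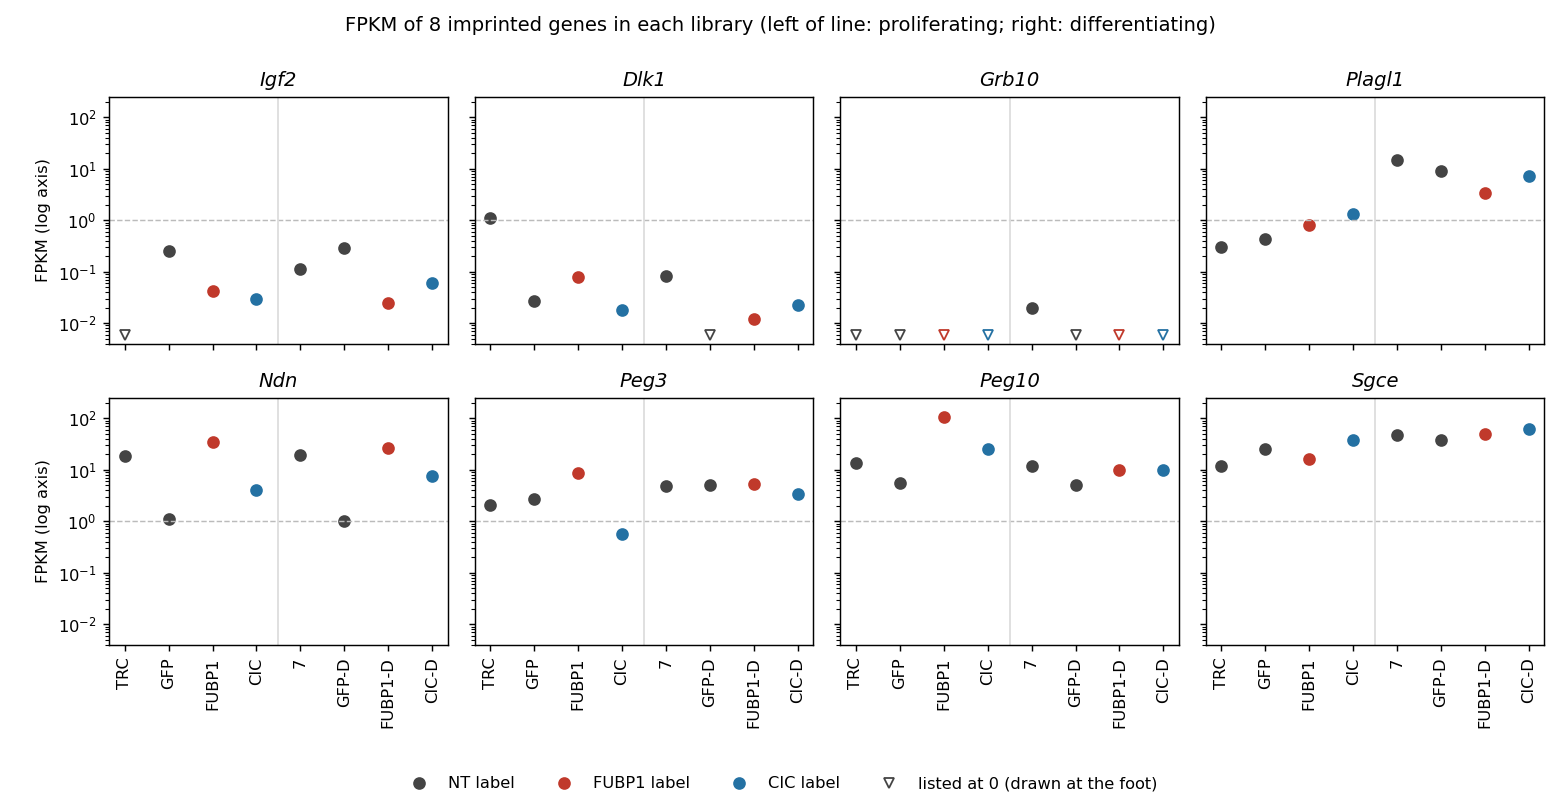
FPKM (log axis) of the 8 members with a row in each of the 8 libraries, 1 point per library, coloured by the labelled target; open triangles are libraries listed at 0, and the dashed line marks 1 FPKM. Igf2, Dlk1 and Grb10 lie at or below 1.11 FPKM throughout, Plagl1 is higher in all differentiating libraries, Ndn is lowest in the GFP-named libraries, and Peg10 peaks in the library labelled FUBP1.

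The kept members varied widely between libraries. The difference between the highest and lowest library on the log2(FPKM + 1) scale was 4.17 for Ndn, 4.14 for Peg10, 3.57 for Plagl1, 2.65 for Peg3 and 2.27 for Sgce, against a median of 1.36 over all kept rows. A range above that of Ndn was found in 3.40% of kept rows, above that of Peg10 in 3.46% and above that of Plagl1 in 5.80%. The share was 14.1% for Peg3 and 20.2% for Sgce. Peg10 had been picked out earlier for the library that holds its highest value, and the level in progenitors chose the members. Nothing is therefore read from these shares.

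Igf2 encodes insulin-like growth factor 2, a secreted ligand of the IGF1 and insulin receptors (chromosome 7, 149836673 to 149846940, mm9). It was listed at 0 in TRC and stood at 0.256 FPKM in GFP, 0.043 in the library labelled FUBP1 and 0.029 in CIC. In the differentiating state the highest value was 0.291 FPKM (GFP-D), followed by 0.112 (7), 0.060 (CIC-D) and 0.025 (FUBP1-D). Igf2 was thus barely detected anywhere, with its highest values in the GFP-named libraries. Its neighbours on the same chromosome were low too: Ins2 (insulin 2) and Th (tyrosine hydroxylase) were listed at 0 in all 8 libraries, and Ascl2 reached 0.982 FPKM in CIC-D. Markers of cell types known for high Igf2 were scarce too. The 4 choroid plexus markers summed to at most 0.0278 FPKM in the proliferating and 1.83 FPKM in the differentiating libraries, and the 6 markers of mesenchyme and meninges to at most 4.21 and 9.46 FPKM. In each state the mesenchyme sum was highest in the library with the most Igf2, with Dcn at 1.30 FPKM in GFP and Pdgfrb at 5.59 in GFP-D. Not every marker on that list did so. Dcn was listed at 0 in GFP-D, Lum at 0 in both GFP and GFP-D, and Foxc1 was highest in CIC (2.96 FPKM) and CIC-D (3.95). The choroid plexus sum was 0 in GFP and highest in GFP-D, where Folr1 stood at 1.81 FPKM. The part of such cells in the Igf2 values was not tested.

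Dlk1, a transmembrane protein of the Notch ligand family that restrains adipocyte differentiation (chromosome 12, 110691033 to 110701546), was at 1.11 FPKM in TRC, 0.027 in GFP, 0.077 in the library labelled FUBP1 and 0.018 in CIC. When differentiating it was listed at 0 in GFP-D, and stood at 0.012 FPKM in FUBP1-D, 0.022 in CIC-D and 0.081 in 7. TRC alone stood apart. In the same imprinted cluster, Rtl1, a gene derived from a retrotransposon, did not exceed 0.01 FPKM and Dio3, which inactivates thyroid hormone, was listed at 0 in all 8 libraries. Begain, on the other side of Dlk1 at a distance of 384.6 kb, was detected and is given with the other imprinted genes below. Grb10, an adaptor that binds and inhibits the insulin and IGF1 receptors (chromosome 11, 11830502 to 11937423), was listed at 0 in 7 libraries and at 0.020 FPKM in the library named 7. Its neighbour Ddc (dopa decarboxylase) reached 1.39 FPKM in GFP and at most 0.197 FPKM elsewhere.

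For 3 of the 5 kept members, RefSeq gives a start site with its upstream sequence, and the 250 bases before it are shown because these genes differed most between states (Plagl1), lay on opposite sides of the controls with the 2 hairpin labels (Peg3) or differed most between controls (Ndn). Of the 10 members, 7 had an entry in the RefSeq promoter table (GRCm38.p6). Sequences run 5′ to 3′ along the gene's strand, with CpG dinucleotides, the sites of imprint methylation, in capitals. Plagl1 is from chr10:13090582-13090831 (plus strand), Peg3 from chr7:6730420-6730669 (minus strand) and Ndn from chr7:62348027-62348276 (plus strand).
Plagl1: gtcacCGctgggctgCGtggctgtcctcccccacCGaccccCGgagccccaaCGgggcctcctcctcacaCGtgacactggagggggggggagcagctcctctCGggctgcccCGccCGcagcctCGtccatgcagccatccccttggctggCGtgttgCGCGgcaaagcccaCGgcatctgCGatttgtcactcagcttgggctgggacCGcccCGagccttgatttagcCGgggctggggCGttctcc
Peg3: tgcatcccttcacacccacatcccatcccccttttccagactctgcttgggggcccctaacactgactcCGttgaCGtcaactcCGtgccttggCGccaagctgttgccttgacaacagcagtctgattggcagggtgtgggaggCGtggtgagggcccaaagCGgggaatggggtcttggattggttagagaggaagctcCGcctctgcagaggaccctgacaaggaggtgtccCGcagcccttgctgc
Ndn: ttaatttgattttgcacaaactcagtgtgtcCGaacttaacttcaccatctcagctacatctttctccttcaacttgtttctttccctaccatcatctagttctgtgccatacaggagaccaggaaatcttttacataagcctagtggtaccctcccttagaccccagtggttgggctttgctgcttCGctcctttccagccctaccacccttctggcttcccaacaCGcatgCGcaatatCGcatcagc
The Plagl1 window held 19 CpG, a number reached by 19.7% of the 32851 RefSeq promoter windows of that length. Peg3 held 8 (reached by 43.0%) and Ndn 5 (reached by 55.6%), beside a median of 6. The windows were also searched on both strands for TGAATGAA and TGAATGGA, octamers bound by capicua, for the cAMP response element TGACGTCA and for GCATGCGC, part of the site of the factor NRF1. Neither octamer occurred in the 3 windows, and they occurred in 1.08% and 1.01% of all windows. Peg3 held 1 cAMP response element (1.55% of all windows) and Ndn 1 match to GCATGCGC (2.26%). Each of these 2 matches contains 1 of the CpG counted above. A match describes the letters only, and binding and methylation were not measured here.

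Plagl1 (Zac1) is a zinc finger transcription factor that promotes cell cycle arrest and regulates other imprinted genes (chromosome 10, 12810594 to 12851501). It stood at 0.308 FPKM in TRC, 0.429 in GFP, 0.803 in the library labelled FUBP1 and 1.32 in CIC. The differentiating libraries held 14.5 FPKM (7), 9.12 (GFP-D), 3.37 (FUBP1-D) and 7.37 (CIC-D). Every differentiating library lay above every proliferating one. The mean was 0.716 ± 0.457 FPKM in the proliferating and 8.60 ± 4.63 FPKM in the differentiating libraries (SD, n = 4 and 4), a difference of 2.38 on the log2 scale (SE 0.37). In the NT libraries alone it went from 0.368 ± 0.086 to 11.8 ± 3.83 FPKM (SD, n = 2 and 2). GFP-D held 21.3 times the level of GFP, CIC-D 5.57 times that of CIC and FUBP1-D 4.20 times that of the library labelled FUBP1. The ratio of 7 to TRC was 47.2, though no label ties these 2 libraries to each other. The level of Plagl1 in proliferating cells is part of what chose the gene, so this difference is a description with no test. With a pseudocount of 0.1 it was 3.41, and with 5 it was 1.19. The astrocyte markers were higher as a sum in the same libraries, as given above, but not each of them. S100b went from 9.16 FPKM in CIC to 2.08 in CIC-D but from 1.24 in the library labelled FUBP1 to 1.53 in FUBP1-D. Gja1 was lower in 7 (82.3) than in TRC (211) but higher in GFP-D (115) than in GFP (56.8). The 5 oligodendrocyte markers summed to more too, at 101 to 252 FPKM against 48.5 to 84.8. The part of such cells in the difference was not tested. In bulk RNA, fewer cells of a type and less RNA per cell cannot be told apart.

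Sgce encodes epsilon-sarcoglycan, a membrane protein whose loss causes myoclonus dystonia (chromosome 6, 4624350 to 4697204). It was at 11.9 FPKM in TRC, 25.4 in GFP, 16.3 in the library labelled FUBP1 and 37.4 in CIC. The differentiating libraries held 47.3 FPKM (7), 37.7 (GFP-D), 49.4 (FUBP1-D) and 61.1 (CIC-D). The differentiating libraries again lay above all proliferating ones, though GFP-D was above CIC by less than the spread of the NT pairs (0.54 on the log2 scale). The means were 22.7 ± 11.3 and 48.9 ± 9.61 FPKM (SD, n = 4 and 4), a difference of 1.17 on the log2 scale (SE 0.27). In the NT libraries alone they were 18.7 ± 9.54 and 42.5 ± 6.76 FPKM (SD, n = 2 and 2). Plagl1 and Sgce were the 2 of 5 kept members whose states did not overlap. Over all kept rows the 4 and 4 libraries did not overlap in 38.0%, with the differentiating ones higher in 20.1% and lower in 17.8% (no kept member), and since the level in progenitors chose the members nothing is read from the count.

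Peg10 is a gene derived from a retrotransposon that is essential for the placenta and still encodes Gag-like and Pol-like proteins (chromosome 6, 4697306 to 4710516). In the table its interval begins 101 bases from the end of the Sgce interval, and the 2 genes are known to be transcribed away from each other. Peg10 was at 13.4 FPKM in TRC, 5.63 in GFP, 105 in the library labelled FUBP1 and 25.3 in CIC. The differentiating libraries held 11.9 FPKM (7), 5.05 (GFP-D), 9.80 (FUBP1-D) and 9.85 (CIC-D). The library labelled FUBP1 held 7.87 times the level of TRC and 18.7 times that of GFP, and FUBP1-D lay between its 2 NT libraries. Across states the difference with the FUBP1 label was 1.87 on the log2 scale (SE 0.70). When the proliferating FUBP1-labelled library was left out, it was 0.48. Peg10 had been picked out earlier for this library, so neither value was tested. The means of the 2 states overlapped widely, at 37.4 ± 46.0 and 9.14 ± 2.89 FPKM (SD, n = 4 and 4). In the NT libraries they were 9.51 ± 5.49 and 8.46 ± 4.82 FPKM (SD, n = 2 and 2), a smaller difference than within either pair.

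The neighbours did not follow each other. The ratio of Peg10 to Sgce FPKM was 6.48 in the library labelled FUBP1 and 1.12 in TRC. It was 0.677 in CIC and 0.221 in GFP. In the differentiating libraries it lay between 0.134 (GFP-D) and 0.251 (7). Peg10 was therefore the more abundant of the pair in 2 proliferating libraries and the less abundant in the other 6. Sgce in the library labelled FUBP1 stood between its 2 NT libraries, at 1.36 times TRC and 0.640 times GFP. Other genes of the cluster were placed differently. Ppp1r9a (neurabin), a synaptic scaffold, was also above both NT libraries there, at 9.47 FPKM against 3.86 and 3.24, and so was Casd1, which acetylates sialic acids, at 21.8 against 18.0 and 13.8. Pon2, a paraoxonase, lay between them at 52.3 FPKM against 38.5 and 59.5. Whether counting used strand is not stated in the sources used here, and reads that cross the shared start region cannot be assigned to 1 of the 2 genes with certainty.

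**Figure D2:**
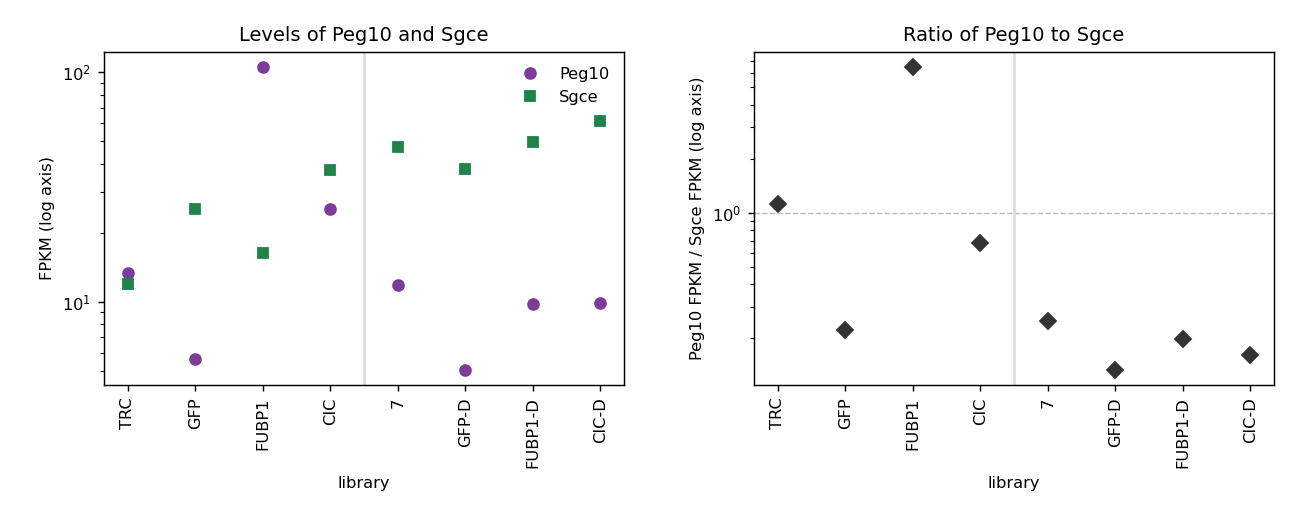
Left, FPKM (log axis) of Peg10 (circles) and Sgce (squares) in each library; right, their ratio (log axis), with 1 library per point; the grey line parts proliferating (left) from differentiating libraries, and the dashed line marks a ratio of 1. The ratio is highest in the library labelled FUBP1 (6.48) and lies at or below 0.251 in all 4 differentiating libraries.

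Peg3 encodes a zinc finger protein that acts in p53-dependent cell death and marks stem and progenitor cells of many adult tissues (chromosome 7, 6658671 to 6683130). It was at 2.07 FPKM in TRC, 2.74 in GFP, 8.84 in the library labelled FUBP1 and 0.573 in CIC. The differentiating libraries held 4.77 FPKM (7), 5.15 (GFP-D), 5.35 (FUBP1-D) and 3.37 (CIC-D). The NT pairs were close to each other, and the labelled libraries of the proliferating state lay on either side of them. The library labelled FUBP1 held 4.28 times TRC and 3.23 times GFP, and CIC held 0.277 and 0.209 times. In the differentiating state FUBP1-D held 1.12 times 7 and 1.04 times GFP-D, and CIC-D 0.706 and 0.655 times. Among the NT libraries the level went from 2.40 ± 0.473 to 4.96 ± 0.266 FPKM (SD, n = 2 and 2), whereas over all arms the states overlapped (3.55 ± 3.64 and 4.66 ± 0.892, n = 4 and 4). The fitted difference between states was 0.62 on the log2 scale (SE 0.33), again a description. The neighbours Zim1 and Usp29, a zinc finger gene and a deubiquitinase, were low: Zim1 was at 0.058 to 0.111 FPKM in the proliferating and 0.393 to 0.738 FPKM in the differentiating libraries, and Usp29 did not exceed 0.067 FPKM.

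Ndn encodes necdin, which binds E2F1 and p53 and holds back cell division (chromosome 7, 69493163 to 69494813). It was at 18.99 FPKM in TRC, 1.13 in GFP, 35.4 in the library labelled FUBP1 and 4.15 in CIC. The differentiating libraries held 19.8 FPKM (7), 1.02 (GFP-D), 27.1 (FUBP1-D) and 7.72 (CIC-D). In order of level, the FUBP1-labelled, the CIC-labelled and the GFP-named libraries of the 2 states were each neighbours: both FUBP1-labelled libraries came first, then 7 and TRC, then CIC-D and CIC, and the 2 GFP-named controls last. TRC held 16.8 times the level of GFP and 7 held 19.4 times that of GFP-D, while GFP-D held 0.905 times the level of GFP. A deficit of more than 1 log2 unit in the GFP-named library in both states was found in 1.55% of kept rows, and an excess of that size in 2.04%. Of the members, Ndn and Peg10 were among these, Peg10 with 2.38 and 2.35 times more in TRC and 7. Fubp1 itself was at 12.4 FPKM in GFP and 50.2 in TRC, and at 25.4 in GFP-D and 24.8 in 7. Any relation between Fubp1 and Ndn levels was not tested. Because the NT libraries differed so much in Ndn (pooled SD 2.33 on the log2 scale), no step between neighbours in the order of Ndn levels exceeded their spread.

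Genes near Ndn in the Prader-Willi region varied less than Ndn or were lower in all differentiating libraries. Magel2, a necdin relative 27.1 kb away, was listed at 0 in all 8 libraries. Mkrn3, a ubiquitin ligase that delays puberty, ranged from 1.87 FPKM (GFP-D) to 4.10 (the library labelled FUBP1), the libraries that also held the lowest and highest Ndn. Peg12 was at 12.7 FPKM in TRC, 4.98 in GFP, 21.7 in the library labelled FUBP1 and 4.71 in CIC, and at 2.34 to 3.02 FPKM in the differentiating libraries. Snrpn, a component of the splicing machinery, stayed between 9.38 and 16.4 FPKM.

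The order of the other kept members was compared with the spread of the NT pairs in the same way. For Peg10 only the steps from the library labelled FUBP1 down to CIC and from CIC down to TRC exceeded it (0.78 on the log2 scale), so TRC, 7, CIC-D, FUBP1-D, GFP and GFP-D, in that order, were each within the spread of the next. For Sgce the step from GFP to the library labelled FUBP1 exceeded it (0.61 against 0.54), that from CIC to GFP equalled it to 2 decimals, and the other 5 lay within it. For Plagl1, 5 of 7 steps did, and GFP-D and CIC-D, as well as GFP and TRC, were the neighbours that did not. For Peg3, 5 of 7 did, and FUBP1-D, GFP-D and 7 lay within the spread of each other. With 2 pairs behind each SD, these limits are themselves imprecise.

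Across both states, none of the members tested passed the threshold with a hairpin label. Fits used limma with an additive model of state and label over the 8 libraries, with Benjamini-Hochberg adjustment over the 11968 kept rows and a threshold of 0.05. The FUBP1 label called 0 rows in all (0% of those tested, with 256 rows at an unadjusted p under 0.05), so 0 of 4 tested members were called. The estimate for Ndn with the FUBP1 label was 2.30 on the log2 scale, with SE 1.08 and a limma adjusted p of 0.999, from 31.2 ± 5.88 FPKM (SD over both states, n = 2) against 10.2 ± 10.6 (n = 4). Peg3 was 0.82 higher (SE 0.41), Plagl1 lower, at -0.56 (SE 0.45), and Sgce 0.06 higher (SE 0.33), each at an adjusted p of 0.999 in limma. Without the proliferating library labelled FUBP1 the value for Peg3 was -0.02. Without TRC that for Sgce was -0.16, and without FUBP1-D it was -0.19 for Sgce and 0.18 for Plagl1. The estimates for Peg3, Sgce and Plagl1 thus changed sign with 1 library. That for Ndn was 0.65 (SE 0.33) without both GFP-named libraries.

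The CIC label called 13 rows (0.109% of those tested) and 0 of 5 members. At an unadjusted p under 0.05 in limma there were 1368 rows (11.4%) and 1 of the 5 members, Sgce. The estimate for Sgce was 0.79 on the log2 scale, with SE 0.33 and a limma adjusted p of 0.430, and both libraries labelled CIC lay above both NT libraries of their state, as in 13% of kept rows. Peg3 was lower, with an estimate of -0.78 (SE 0.41, adjusted p = 0.492 in limma), and below both NT libraries in both states, as in 17.7% of kept rows. Its estimate was -0.21 without CIC and -1.35 without CIC-D, and that for Sgce was 0.47 without CIC. The estimate for Peg10 was 0.86 (SE 0.70, adjusted p = 0.648), and 0.31 without both GFP-named libraries. Plagl1 (0.09, SE 0.45, adjusted p = 0.950) and Ndn (0.04, SE 1.08, adjusted p = 0.990) had estimates near 0. The value for Ndn rests on the controls: without both GFP-named libraries it was -1.61 (SE 0.33, adjusted p = 0.272), since TRC and 7 held more Ndn than CIC and CIC-D.

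Each labelled library was also compared with the 2 NT libraries of its own state, as a description. The library labelled FUBP1 lay above both in 4 of the 5 kept members and below both in none, against 26.7% and 27.7% of kept rows. In 2 of them, Peg10 and Peg3, it did so by more than 1 log2 unit (0.994% of kept rows). Peg10 had been picked out earlier for this library, so its place in both counts was fixed beforehand and nothing is read from them. CIC lay above both NT libraries for Plagl1, Sgce and Peg10 (31.4% of kept rows) and below both for Peg3 (39.9%), never by more than 1 log2 unit from both (3.63% of kept rows above and 5.65% below by that margin). FUBP1-D lay above both for Sgce, Peg3 and Ndn (34.9% of kept rows) and below both for Plagl1 (28.3%). Plagl1 there, at 0.232 times 7 and 0.370 times GFP-D, was the single member beyond that margin (0.760% of kept rows lay below and 1.24% above by as much). CIC-D lay above both for Sgce (30.8% of kept rows) and below both for Plagl1 and Peg3 (34.1%), with no member beyond the margin (1.07% of kept rows above and 1.76% below). Peg3 and Ndn were above both NT libraries in both states with the FUBP1 label, as 11% of kept rows were, and none was below both in both (9.33% of kept rows). Plagl1 was thus above both NT libraries in the proliferating libraries labelled FUBP1 and CIC and below both in FUBP1-D and CIC-D. The same NT libraries serve both labels, so the positions of the 2 labelled libraries of a state are not independent.

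**Figure D3:**
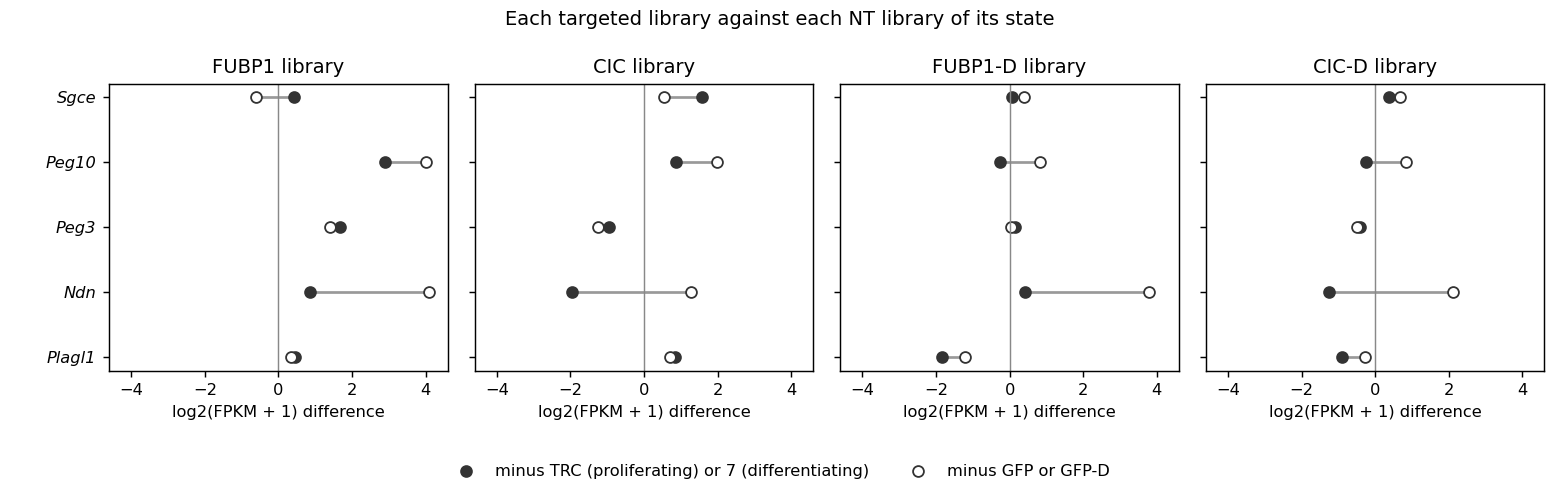
Difference in log2(FPKM + 1) between each labelled library and each NT library of its state, for the 5 kept members; filled points are against TRC or 7, open points against GFP or GFP-D, and the bar joins the 2. Peg10 (2.89 and 4.004) and Peg3 (1.68 and 1.40) lie beyond 1 on the same side in the library labelled FUBP1, and Ndn changes most with the choice of control.

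Other imprinted genes changed in both directions on differentiation. Of 61 named genes 54 had a row, 8 of these were at 0 throughout and 29 were kept. Of the 29, limma called 7 higher and 4 lower, which is 37.9% against 38.8% of all kept rows (21.2% higher and 17.7% lower), with a median log2 difference of 0.14 against 0.09 over all kept rows. Among those that rose were Osbpl5, an oxysterol-binding protein (from 8.97 ± 3.02 to 79.9 ± 39.1 FPKM, SD, n = 4 and 4, log2 difference 2.95, SE 0.36, limma adjusted p = 0.00156), and Begain, a synaptic protein (from 0.598 ± 0.437 to 4.48 ± 3.62 FPKM, adjusted p = 0.0237). Zrsr1, a splicing factor relative, rose from 3.87 ± 1.44 to 12.5 ± 4.93 FPKM (adjusted p = 0.00265), and Phactr2, 76.0 kb from Plagl1 with 2 rows between them, from 1.67 ± 1.42 to 5.37 ± 2.56 FPKM (adjusted p = 0.0297). The 4 that fell were Peg12 (from 11.01 ± 8.01 to 2.66 ± 0.279 FPKM, limma adjusted p = 0.0196), Commd1, a regulator of copper and of NF-κB (from 70.0 ± 3.49 to 32.6 ± 3.61, adjusted p = 0.00199), the ubiquitin ligase Ube3a (from 30.3 ± 5.28 to 18.1 ± 3.37, adjusted p = 0.0290) and Mcts2 (from 18.2 ± 4.21 to 10.8 ± 1.61, adjusted p = 0.0416). Zrsr1 lies within Commd1 and Mcts2 within H13, so their values are uncertain without strand. Begain, Phactr2, Peg12, Ube3a and Mcts2 were not called without the library labelled FUBP1 or without FUBP1-D, among other alternatives. Mcts2 lost the call in 10 of 17 alternatives, Begain and Phactr2 in 8 each, Ube3a in 6 and Peg12 in 4. Without either FUBP1-labelled library the list had 5 calls, and without GFP-D it had 7. Osbpl5, Zrsr1 and Commd1 were called in all 17 alternatives.

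**Figure D4:**
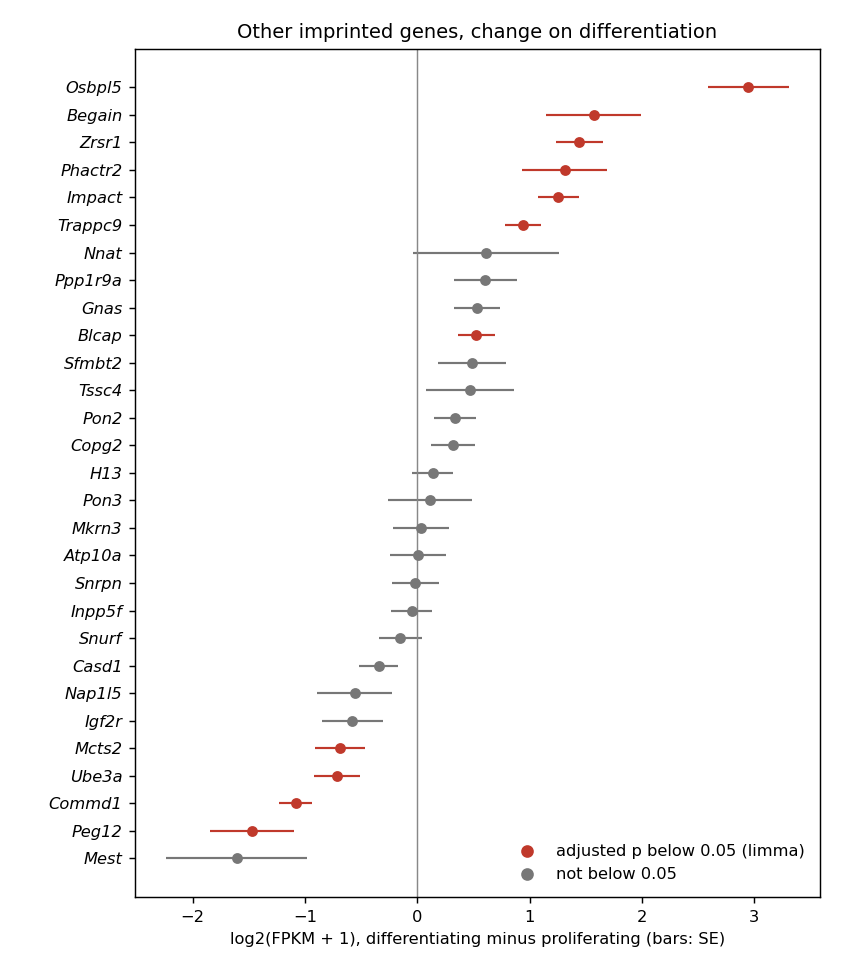
Fitted difference in log2(FPKM + 1) between differentiating and proliferating libraries for the 29 kept genes of the list of other imprinted genes, with its standard error; red marks an adjusted p below 0.05 in limma. Osbpl5 lies furthest up (2.95), and Mest has the lowest estimate without passing the test.

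Mest, a hydrolase, was the most abundant imprinted gene of the list after Gnas, and it was spread as widely as the members. It was at 323 FPKM in TRC, 50.7 in GFP, 695 in the library labelled FUBP1 and 102 in CIC, and the differentiating libraries held 104 (7), 54.1 (GFP-D), 86.4 (FUBP1-D) and 26.9 (CIC-D). Its difference between states of -1.61 (SE 0.63) did not pass the test (limma adjusted p = 0.0775). In the library labelled FUBP1, 3 of the 29 exceeded both NT libraries by more than 1 log2 unit, as did 0.994% of kept rows. They were Mest, Nnat (neuronatin, 47.0 FPKM against 10.8 and 5.77) and Ppp1r9a. Nnat lies within Blcap, so its value is uncertain without strand. No gene of the list was called with the FUBP1 or the CIC label (0 of 29 in each in limma). At an unadjusted p under 0.05 there were 4 and 2 genes, where the share of all kept rows was 2.14% for FUBP1 and 11.4% for CIC. Mest and Nnat were named here after their values were seen.

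The insulin-like growth factor pathway was expressed with its ligands barely detected. Igf1 did not exceed 0.104 FPKM and Igf2 0.291 FPKM. Of the 19 genes of this list 16 were kept, 4 rose and 3 fell on differentiation (43.8% called against 38.8% of all kept rows, median -0.04 against 0.09). Both tyrosine kinase receptors rose: Igf1r from 11.9 ± 6.42 to 26.4 ± 5.32 FPKM (SD, n = 4 and 4, log2 difference 1.19, SE 0.34, limma adjusted p = 0.0293) and Insr, the insulin receptor, from 11.4 ± 4.27 to 22.3 ± 6.25 (adjusted p = 0.0232). Grb14, a relative of Grb10 that also inhibits the insulin receptor, rose from 2.77 ± 1.55 to 6.09 ± 2.87 FPKM (adjusted p = 0.0391), but its call was lost under both rescalings. The imprinted receptor Igf2r, which removes IGF2 from the cell surface, was at 31.0 ± 10.9 and 20.0 ± 5.34 FPKM and was not called (adjusted p = 0.125). Secreted binding proteins went both ways. Igfbp2 fell from 407 ± 255 to 34.3 ± 18.7 FPKM (log2 difference -3.35, SE 0.65, limma adjusted p = 0.00756), Igfbp3 from 1067 ± 472 to 271 ± 145 (adjusted p = 0.0109) and Igfbp4 from 111 ± 54.0 to 28.0 ± 31.4 (adjusted p = 0.0211), while Igfbp6 rose from 0.305 ± 0.153 to 2.41 ± 1.12 (adjusted p = 0.00986). Igfbp6 did not exceed 0.460 FPKM when proliferating, so it passed the filter only through the differentiating libraries and its p is not read as support. Leaving out 7, GFP-D or any 1 of the 4 targeted libraries left 4 calls. Igfbp2, Igfbp3 and Igfbp6 were called in all 17 alternatives. Igf1r lost the call in 8 of them, Insr in 6, Grb14 in 10 and Igfbp4 in 6 (limma adjusted p up to 0.0962, 0.0824, 0.156 and 0.0864). For each of these genes the omission of 1 or another library was among them. No gene of the list was called with either hairpin label in limma (0 of 16, with 0 for FUBP1 and 5 for CIC at an unadjusted p under 0.05, where 11.4% of all kept rows stood for CIC).

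Genes that act on imprints or DNA methylation, not all of them by keeping imprints, included calls in both directions. The steepest falls were in the maintenance methylation pair Uhrf1 and Dnmt1. Of the 15 in this list 13 were kept, 4 fell and 2 rose (46.2% called against 38.8% of all kept rows, median -0.11 against 0.09). Uhrf1, which brings the maintenance methyltransferase to replicating DNA, fell from 48.6 ± 30.6 to 2.18 ± 1.00 FPKM (SD, n = 4 and 4, log2 difference -3.74, SE 0.38, limma adjusted p = 9.7e-04), and Dnmt1, that methyltransferase, from 66.4 ± 22.1 to 20.7 ± 1.61 (adjusted p = 0.00275). The corepressor Trim28 fell from 147 ± 60.4 to 64.1 ± 2.24 FPKM (adjusted p = 0.0142), a call lost when either FUBP1-labelled library was left out (adjusted p up to 0.065). Yy1 fell from 49.9 ± 17.2 to 31.3 ± 3.18 FPKM (limma adjusted p = 0.0421), and its call was lost in 11 of 17 alternatives (adjusted p up to 0.134). Those that rose were the oxidase Tet2 (from 3.30 ± 1.62 to 7.84 ± 1.91 FPKM, adjusted p = 0.0204) and the methyltransferase Dnmt3b (from 0.605 ± 0.165 to 1.97 ± 0.436, adjusted p = 0.0176). Dnmt3b did not exceed 0.750 FPKM when proliferating, so it passed the filter only through the differentiating libraries and its p is not read as support. With either FUBP1-labelled library left out, this list had 3 calls. Uhrf1 and Dnmt1 were called in all 17 alternatives, whereas Tet2 lost the call without TRC, 7 or either FUBP1-labelled library and Dnmt3b without CIC or CIC-D. Both also lost it under quantile normalization, which left 4 lower and 0 higher. Tet2 lost it with the name as a block too, and Dnmt3b with 6 group means and without both GFP-named libraries. Zfp57, which binds methylated imprint control regions, was listed at 0 in GFP, at 0.496 FPKM in TRC, and reached 3.497 FPKM in 7 and 1.43 in FUBP1-D, with no more than 0.265 FPKM in the other 4. No gene of this list was called with either hairpin label in limma (0 of 13, with 0 at an unadjusted p under 0.05).

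For each kept member, the 2 genes of closest profile were found by the root mean square difference of log2(FPKM + 1) values, each centred on its mean over the 8 libraries. For Sgce they were Ctso, a lysosomal protease, at 0.06 and Rftn2, a lipid raft protein, at 0.20. For Peg10 they were Chn2, a GTPase-activating protein, at 0.41 and the kainate receptor subunit Grik1 at 0.45, both highest in the library labelled FUBP1 (24.7 and 6.08 FPKM). For Ndn the closest were Cdkn2a, which encodes 2 tumour suppressors, at 0.64 and Ldoc1l at 0.68, so that no gene followed Ndn as closely as the others were followed. Wsb1 (0.33) and Mfsd7c (0.35) were nearest to Plagl1, and 2810459M11Rik (0.38) and Arhgef17 (0.40) to Peg3. A difference under 1 to Ndn was found in 0.318% of kept rows, under 1 to Peg10 in 6.53%, to Plagl1 in 16.1%, to Sgce in 68.6% and to Peg3 in 71.8%, so likeness to Sgce or Peg3 is common. These distances share the 8 libraries and are descriptions.

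**Figure D5:**
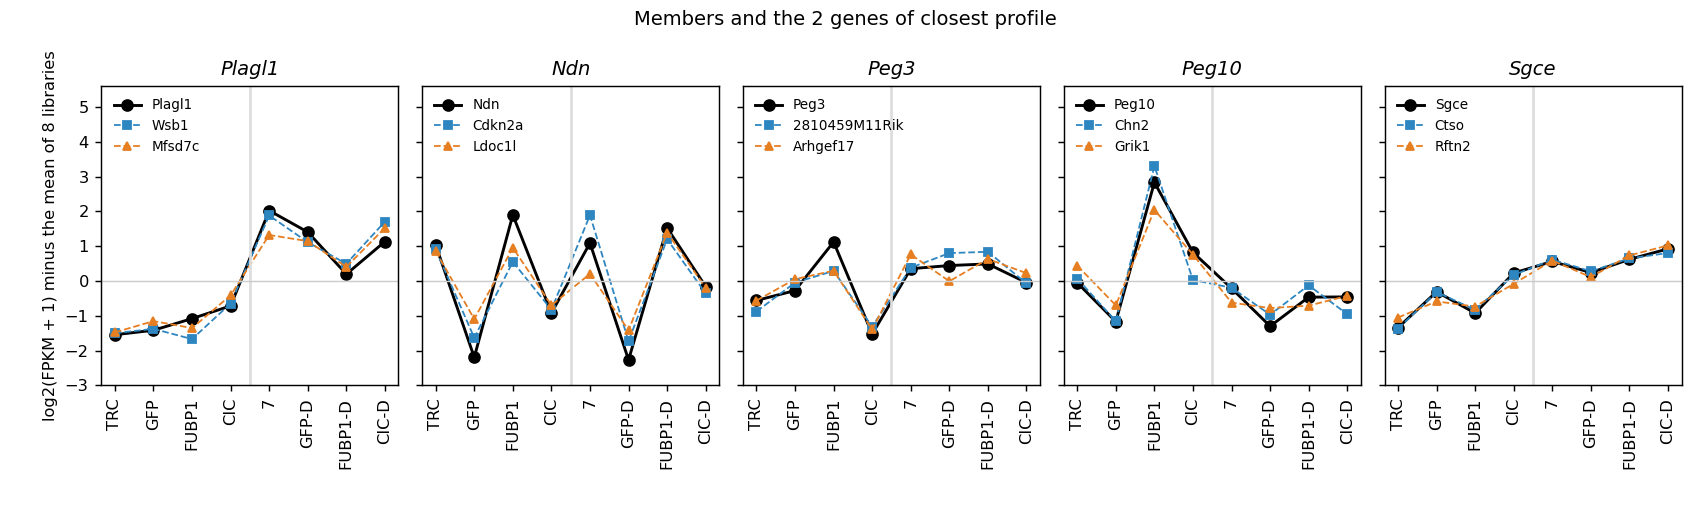
log2(FPKM + 1) minus its mean over the 8 libraries for each kept member (black) and the 2 genes of smallest root mean square difference from it (blue and orange). Ctso follows Sgce most closely (0.06), and the lines around Ndn are furthest apart (0.64 and 0.68).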

How the data were processed

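The values are FPKM from 1 table deposited by the authors, with 1 value per gene and library. TopHat2 2.0.11, Cufflinks 2.1.1, cutadapt and bcl2fastq 2.17, with build mm9, are named per the submitters' processing notes. Their settings, the annotation and any use of strand: not given in the sources used here. Starts in the table count from 0 (6898 of 18783 unique symbols then had the RefSeq gene length, against 504 if from 1) and are printed 1-based. Low FPKM values moved in steps 0.953 to 1.35 times those of TRC, so low values were coarsest in 7; absolute depth is unknown.

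FPKM were used without rescaling as log2(FPKM + 1), which understates changes of low genes. The filter asked for 1 FPKM or more in at least 2 libraries. Kept rows were fitted in R 4.3.3 with limma 3.58.1 (two-sided, trended empirical Bayes) on state and label, with 4 residual degrees of freedom and Benjamini-Hochberg adjustment. The fit was tested on simulated data. Members, lists and tests were chosen with earlier results of these data known. Differences between states for the members, and Peg10 with the FUBP1 label, carry no p. All members are described; from the lists, up to 4 called genes per direction with the largest change and neighbours of members are named. Genes of like profile are named for members whose log2 range exceeds 2. Each library was left out in turn, and other pseudocounts, filters, scalings and models were run. The labels give no batch.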

Additional observations from a re-analysis of the deposited data

Results flagged for a closer look

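Plagl1 was marked because the hairpin labels went opposite ways in the 2 states. The library labelled FUBP1 lay above both proliferating NT libraries (0.803 FPKM against 0.308 and 0.429) and FUBP1-D below both differentiating ones (3.37 against 14.5 and 9.12). These proliferating values lie under 1 FPKM and rest on few fragments. The difference of the 2 effects was -1.92 on the log2 scale (SE 0.63) and did not pass the test in limma with 6 group means (adjusted p = 0.9995). CIC and CIC-D were placed likewise (1.32 and 7.37 FPKM), with a difference of -1.35 (SE 0.63, adjusted p = 0.998). Both rest on the same NT libraries and on 1 library per label and state. No kept member had a library set apart from the other 3 of its state by Dixon's criterion (10 groups of 4 libraries checked).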

How the results depend on the processing

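The fitted differences between states kept their sign for Plagl1, Sgce, Peg10 and Peg3 in all alternatives run. Leaving out 1 library at a time gave 2.09 to 2.75 for Plagl1, 0.96 to 1.37 for Sgce, -1.66 to -0.52 for Peg10, 0.33 to 1.04 for Peg3 and -0.56 to 0.78 for Ndn, whose estimate of 0.09 had no stable sign. With the FUBP1 label the ranges were -0.018 to 1.65 for Peg3, -0.19 to 0.31 for Sgce, -1.29 to 0.175 for Plagl1, 1.603 to 2.96 for Ndn and 0.48 to 3.26 for Peg10. With the CIC label they were -1.35 to -0.21 for Peg3, 0.43 to 1.30 for Peg10, 0.47 to 1.11 for Sgce, -0.65 to 0.71 for Ndn and -0.26 to 0.45 for Plagl1. The sign of the last 2 also changed with a pseudocount of 5 (-0.17 for Ndn and -0.094 for Plagl1) and without both GFP-named libraries (-1.61 and -0.031). The cause was not tested. Differentiation called 4647 rows, 2906 with 6 group means and 2482 to 4863 with 1 library left out (2482 without FUBP1-D and 2498 without the library labelled FUBP1). Its 2533 higher and 2114 lower calls became 2134 and 2478 with median-of-ratios rescaling and 2040 and 2215 with quantile normalization. Of the other imprinted genes 7 were called with 6 group means and 5 to 10 with 1 library left out. Of the IGF list 4 were called without the filter on low values and 4 to 8 with 1 library left out. Of the list of genes that act on imprints or DNA methylation, 3 to 8 were called with 1 library left out. The CIC label called 13 rows, 35 with a pseudocount of 0.1, 4 with 5, 2 without the filter, 1 with 6 group means, 3 without the GFP-named libraries and 2 to 18 with 1 library left out (2 without CIC or CIC-D, 4 without GFP and 6 without GFP-D). The labels number no replicates, but names such as GFP and GFP-D recur across states; with the name as a replicate block differentiation called 3534 rows and 8 of the other imprinted genes, and the estimate for Plagl1 was 1.98. A name block cannot be fitted beside the labels, which it contains. Values under 1 FPKM, those of Igf2, Dlk1 and Grb10 among them, rest on few fragments.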
